A study of Canis lupus familiaris with 15 samples.

Results

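The ADAM, ADAMTS and ADAMTS-like genes encode related proteins of the cell surface and the extracellular matrix. They were taken by gene symbol from tables of genes that differed between groups of canine osteosarcoma cells, by a rule that reads names and no measured value, although the families were picked with earlier results of these data known. A total of 18 such genes were listed in at least 1 of 3 tables, which together list 7698 genes. Of these 18, 8 were membrane ADAM genes, 8 were secreted ADAMTS genes and 2 were ADAMTS-like genes. RefSeq (UU_Cfam_GSD_1.0) names 43 dog genes with symbols of these families, and the other 25, among them ADAM8, ADAMTS4 and ADAMTS5, have no value analysed here.

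RNA-Seq was performed on 15 libraries in 5 groups of 3. They came from 3 canine osteosarcoma lines, with extravasated and parental cells of D17 and of HMPOS and parental cells alone of POS. HMPOS is a strongly metastasizing derivative of POS. Extravasated cells are sub-lines grown in culture from tumor cell clusters that had left the vessels of *Tg(fli1a:EGFP)* zebrafish embryos after infusion, whereas parental cells had not been in the fish. Passage through the fish, selection there and regrowth in culture therefore cannot be told apart. Infused cells were fluorescent or carried a fluorescent tracker dye, and the D17 and HMPOS lines were cultured in IMDM with fetal bovine serum.

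ADAM proteins sit in the cell membrane, where the catalytically active members cut the outer parts off other membrane proteins, a process called shedding. ADAMTS proteins are secreted, carry thrombospondin type 1 repeats and cut matrix proteins such as procollagens and the large proteoglycans. ADAMTS-like proteins carry the repeats without the protease domain. In bone and other connective tissues these families are known for collagen maturation, proteoglycan turnover and the release of growth factor ligands.

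Expression was given as FPKM, a fragment count corrected for the length of the transcript and for the size of the library, which permits levels of different genes to be set beside each other within a table. Each group has 1 FPKM value that pools its 3 libraries. How far single libraries varied and how deeply they were sequenced is thus unknown here, no SD or interval can be computed, and every ratio is one of 2 pooled values. The p-values and q-values that the authors' tables hold were not used, so no ratio has a test here. Ratios are extravasated over parental cells, or parental HMPOS over parental POS cells. Where 2 values stand together without the names of the groups, the parental value comes before the extravasated value, and the POS value before the HMPOS value. Every row of the tables is marked as significant by the authors, so each listed gene had to differ between the groups, and a gene that is not listed has no value rather than an equal one. The table for D17 lists 12 genes of the families among 4412 genes, that for HMPOS lists 5 among 1189, and that for parental HMPOS against parental POS lists 14 among 5746. The group names in the tables differ from those of the sample records. The name for metastasis was read as extravasated and the name norm as parental, as the POS samples, all of which are parental, also carry the name norm. The article's account and these names do not point to one direction for extravasated against parental cells, so the direction in D17 and HMPOS rests on the names alone. With the opposite reading each direction given for D17 and HMPOS would be exchanged.

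Of 10 osteoblast markers, the D17 and HMPOS tables list 5 each and that of the parental lines lists 6, and the levels of the others are unknown. SPARC, a bone matrix glycoprotein, was at 433.0 FPKM in extravasated D17, 2897 FPKM in extravasated HMPOS and 4439 FPKM in parental POS cells. Of 6 leukocyte markers none was listed in any table, and of 6 endothelial markers KDR alone was listed, at 1.73 FPKM in POS and at 0.146 FPKM in parental HMPOS. Of 5 epithelial markers, CDH1 and EPCAM were listed in D17, at 1.47 and 1.72 FPKM in extravasated cells and at 0.0783 and 0.431 FPKM in parental cells. CDH1 was also listed in HMPOS, at 1.49 FPKM in parental and 3.04 FPKM in extravasated cells, and in POS it was at 4.30 FPKM. The part of these markers in the results was not tested. In pooled RNA of a culture, a change in the number of cells that express a gene and a change in RNA per cell cannot be told apart.

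The 12 listed genes of the families were all higher in extravasated than in parental D17 cells. Among all listed genes of that table, 54.2% were higher and 45.8% lower. ADAMTS2 and ADAMTS9 were the 2 genes higher by more than 2-fold, a threshold that 18.3% of all listed genes passed in this direction and 8.5% in the other. The membrane ADAM genes were higher by 1.59-fold to 1.86-fold and the ADAMTS genes by 1.58-fold to 4.03-fold. The median log2 ratio was 0.81 for 5 ADAM genes and 0.84 for 6 ADAMTS genes, beside 0.39 for all listed genes.

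In HMPOS, the 5 listed genes were likewise all higher in extravasated than in parental cells, where 67% of all listed genes were higher and 33% lower. ADAMTS2, ADAMTS12 and ADAMTSL1 were higher by more than 2-fold, as were 20.5% of all listed genes, while 4.79% were lower by more than 2-fold. The ADAM genes were higher by 1.47-fold and 1.69-fold. The median log2 ratio was 1.24 for the 5 genes and 0.58 for all listed genes. The listed genes are too few for these shares to be read as a property of the families.

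Between parental lines the directions were mixed. In parental HMPOS cells 4 of the 14 listed genes were higher than in parental POS cells and 10 were lower, beside 47.7% and 52.3% of all listed genes. ADAM12 was the 1 gene higher by more than 2-fold in HMPOS, a threshold that 8.49% of all listed genes passed. ADAM22, ADAMTS9, ADAMTS12 and ADAMTSL3 were lower by more than 2-fold, as were 19.1% of all listed genes. The median log2 ratio of HMPOS over POS was -0.52 for the 14 genes and -0.31 for all listed genes.

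**Figure D1:**
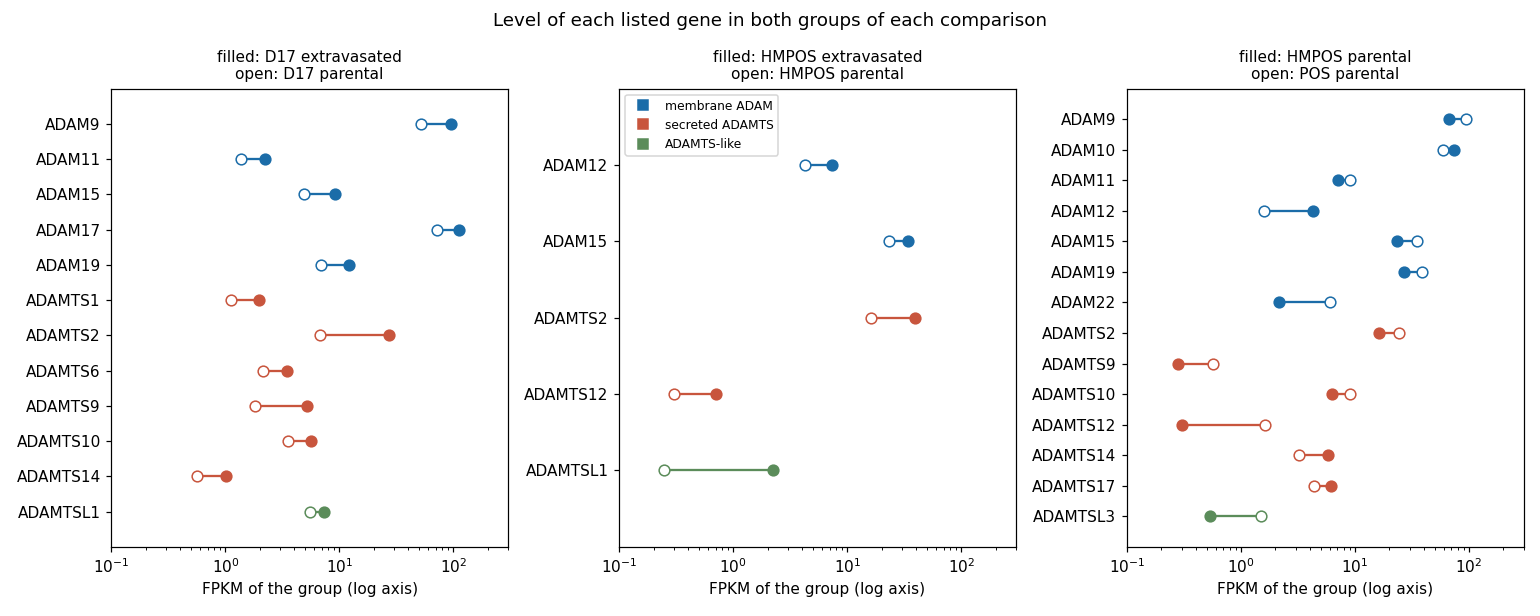
Level of each listed gene in FPKM (x axis, log scale) in both groups of the D17, HMPOS and HMPOS against POS comparisons, 1 pooled value per group of 3 libraries and therefore no error bar, with filled circles for the group named first. The filled circle lies to the right of the open circle for all 12 genes in D17 and all 5 in HMPOS, and for 4 of 14 genes in HMPOS against POS.

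ADAM17 is the sheddase that releases tumor necrosis factor and several ligands of the epidermal growth factor receptor. It had the highest level of the 12 listed genes of the families in D17. Genes not listed there, such as ADAM10, have no value. ADAM17 was at 71.0 FPKM in the parental and at 112.7 FPKM in the extravasated D17 cells, a ratio of 1.59. The gene lies on chromosome 17 from 6590304 to 6638582. All positions are those of the tables, for which the submitters' processing notes name the build CanFam3.1, and the sources do not say whether the first base counts from 0 or 1. ADAM17 is not listed for HMPOS or for HMPOS against POS.

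ADAM9, another membrane sheddase, was next in level. It was at 51.5 FPKM in the parental and at 94.9 FPKM in the extravasated D17 cells, a ratio of 1.84 (chromosome 16, 26410906 to 26555937). ADAM9 and ADAM17 together made up 89.9% of the summed FPKM of the 5 listed ADAM genes in extravasated cells and 90.3% in parental cells, so their joint share differed little although each gene was higher in extravasated cells. In the comparison of parental lines ADAM9 was at 94.2 FPKM in POS and at 66.3 FPKM in parental HMPOS, a log2 ratio of -0.51.

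ADAM10, the sheddase best known for cutting Notch receptors and cadherins, was listed for HMPOS against POS alone. It was at 59.5 FPKM in POS and at 73.5 FPKM in parental HMPOS, a ratio of 1.24 (chromosome 30, 23607887 to 23697972). This was the smallest absolute log2 ratio, 0.31, among the 14 genes of that table. ADAM10 was thus at 1.11 times the level of ADAM9 in HMPOS and at 0.631 times its level in POS, and the order of these 2 abundant sheddases differed between the lines. Whether that order holds beyond the spread between libraries cannot be told from pooled values.

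ADAM15 and ADAMTS2 were the 2 genes listed in all 3 tables. ADAM15, a membrane ADAM whose disintegrin domain binds integrins, lies on chromosome 7 from 42433117 to 42466673. In D17 it was at 4.89 FPKM in the parental and at 9.11 FPKM in the extravasated cells, a ratio of 1.86, and in HMPOS at 23.3 and 34.3 FPKM, a ratio of 1.47. In HMPOS its log2 ratio of 0.56 was close to the median of all listed genes, ranking 629 of 1186 from the highest, whereas in D17 its log2 ratio of 0.90 ranked 934 of 4404. In parental POS cells ADAM15 was at 34.8 FPKM, above the 23.3 FPKM of parental HMPOS cells.

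ADAM19, a sheddase known for processing neuregulins, was at 6.84 FPKM in the parental and at 12.01 FPKM in the extravasated D17 cells, a ratio of 1.75 (chromosome 4, 52649983 to 52733351). It was at 38.8 FPKM in POS and at 26.7 FPKM in parental HMPOS, a log2 ratio of -0.54. ADAM12, a membrane ADAM studied in muscle, fat and bone cells, was listed in both HMPOS comparisons and not in D17. It was at 4.29 FPKM in the parental and at 7.27 FPKM in the extravasated HMPOS cells, a ratio of 1.69, and at 1.58 FPKM in parental POS cells (chromosome 28, 35159833 to 35485173). The ratio of parental HMPOS over parental POS cells was 2.72, which ranked 223 of 5718 genes from the highest.

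ADAM11 and ADAM22 lack the zinc-binding active site and act as receptors rather than proteases, chiefly in nerve cells. ADAM11 was at 1.37 FPKM in the parental and at 2.22 FPKM in the extravasated D17 cells, a ratio of 1.62, and at 9.07 FPKM in POS and at 7.03 FPKM in parental HMPOS, a log2 ratio of -0.37 (chromosome 9, 18709052 to 18728634). ADAM22 was listed for HMPOS against POS alone, at 6.01 and 2.15 FPKM, so that POS was 2.80-fold higher (chromosome 14, 14032474 to 14250288). In D17 the lowest listed catalytic ADAM, ADAM15, was above ADAM11 in both groups. For HMPOS against POS ADAM12 was below both ADAM11 and ADAM22 in POS and below ADAM11 alone in HMPOS.

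ADAMTS2, an amino-propeptidase that trims fibrillar procollagens before they assemble, was the listed gene of the families with the largest ratio in D17. It was at 6.70 FPKM in the parental and at 27.0 FPKM in the extravasated D17 cells, a ratio of 4.03 that ranked 216 of 4404 genes. In HMPOS it was at 16.3 and 39.1 FPKM, a ratio of 2.40 that ranked 129 of 1186 genes. ADAMTS2 had the highest FPKM of the listed ADAMTS genes in each group of each table. In D17 its share of the summed FPKM of the 6 listed ADAMTS genes was 60.9% in extravasated and 42.2% in parental cells. Parental POS cells had 24.5 FPKM, 1.503-fold above parental HMPOS cells. The gene lies on chromosome 11 from 2277642 to 2501635.

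ADAMTS14, which acts on the same procollagen sites, stood well below ADAMTS2. It was at 0.560 FPKM in the parental and at 1.01 FPKM in the extravasated D17 cells, a ratio of 1.81, and ADAMTS2 exceeded it 26.7-fold in extravasated and 11.98-fold in parental cells. In parental HMPOS cells ADAMTS14 was at 5.74 FPKM and in POS at 3.23 FPKM, a ratio of 1.78, whereas ADAMTS2 differed in the other direction. The level of ADAMTS2 over ADAMTS14 was thus 2.84 in HMPOS and 7.59 in POS. ADAMTS14 lies on chromosome 4 from 21534015 to 21612585.

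ADAMTS9 and ADAMTS1 cut versican and aggrecan, the large proteoglycans of the matrix. ADAMTS9 was at 1.80 FPKM in the parental and at 5.24 FPKM in the extravasated D17 cells, a ratio of 2.91 (chromosome 20, 26490341 to 26750109). It was at 0.561 FPKM in POS and at 0.279 FPKM in parental HMPOS, so that POS was 2.01-fold higher, barely past the threshold and with both values below 1 FPKM. ADAMTS1 was at 1.11 FPKM in the parental and at 1.97 FPKM in the extravasated D17 cells, a ratio of 1.77 (chromosome 31, 22169405 to 22178894). Their substrate versican, VCAN, was picked outside the rule for named genes and after its values were known. It was at 23.2 FPKM in the parental and at 17.01 FPKM in the extravasated D17 cells, and at 8.478 and 3.998 FPKM in HMPOS. The article's account of versican and the group names do not point to one direction, so that of VCAN rests on the names alone.

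ADAMTS12, a protease that cuts the cartilage protein COMP, was at low levels in the HMPOS lineage. It was at 0.301 FPKM in the parental and at 0.710 FPKM in the extravasated HMPOS cells, a ratio of 2.36 between 2 values below 1 FPKM. In parental POS cells it was at 1.62 FPKM, 5.40-fold above parental HMPOS cells, the largest absolute log2 ratio, 2.43, of the families in that table. The gene lies on chromosome 4 from 73887923 to 74185403.

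ADAMTS6, ADAMTS10 and ADAMTS17 belong to the members associated with fibrillin microfibrils. In D17, ADAMTS10 was at 3.57 FPKM in the parental and at 5.64 FPKM in the extravasated cells, a ratio of 1.58, and ADAMTS6 at 2.15 and 3.50 FPKM, a ratio of 1.63. Their ratios were thus close to each other and below those of the other ADAMTS genes of that table. Between parental lines ADAMTS10 was at 8.95 FPKM in POS and at 6.31 FPKM in parental HMPOS, a log2 ratio of -0.51, and ADAMTS17 at 4.34 and 6.15 FPKM, a log2 ratio of 0.51. ADAMTS10 lies on chromosome 20 from 53089603 to 53107084, ADAMTS6 on chromosome 2 from 50955853 to 51236421 and ADAMTS17 on chromosome 3 from 40613856 to 40939685.

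ADAMTSL1, a matrix glycoprotein also known as punctin, was listed for D17 and HMPOS with ratios of very different size. In HMPOS it was at 0.247 FPKM in the parental and at 2.23 FPKM in the extravasated cells, a ratio of 9.03 that ranked 7 of 1186 genes. In D17 it was at 5.49 and 7.30 FPKM, a ratio of 1.33 and the smallest of the 12 genes there. The difference between the lines was not tested, and the tables were normalized separately, so levels are not compared between D17 and HMPOS. With 1 FPKM added to both groups, the log2 ratio in HMPOS was 1.37 in place of 3.17. The related ADAMTSL3 was listed for HMPOS against POS alone, at 1.498 and 0.532 FPKM, so that POS was 2.82-fold higher. ADAMTSL1 lies on chromosome 11 from 38372624 to 38755954 and ADAMTSL3 on chromosome 3 from 55358796 to 55695236.

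**Figure D2:**
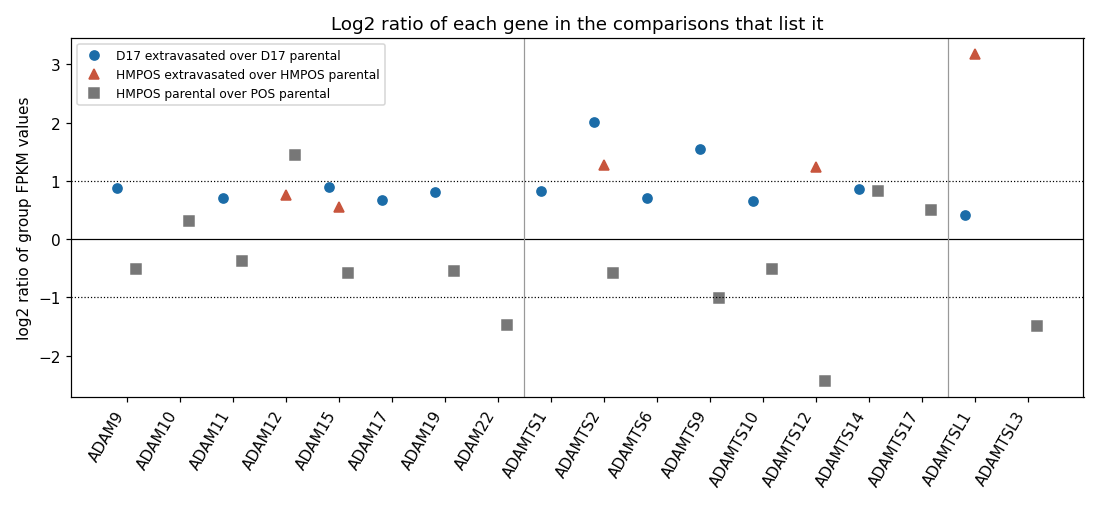
Log2 ratio of the group FPKM values (y axis) of each of the 18 genes in each comparison that lists it, with circles for D17, triangles for HMPOS and squares for HMPOS over POS, vertical lines between ADAM, ADAMTS and ADAMTS-like genes and dotted lines at a 2-fold ratio. All circles and triangles lie above 0, with the highest at 3.17 for ADAMTSL1 in HMPOS, and squares lie from -2.43 for ADAMTS12 to 1.44 for ADAM12.

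The ratio of each class was set beside all listed genes of its table. When the log2 ratio of the median listed gene was subtracted, all 12 D17 genes were higher, as were 4 of the 5 HMPOS genes, ADAM15 being the exception, and in HMPOS against POS 4 of 14 were above and 10 below. Centred in this way, 1 gene in HMPOS, ADAMTSL1, stayed above 2-fold, in place of 3. Without centring, no ADAM gene passed 2-fold in D17 or HMPOS, while 2 of 6 ADAMTS genes did in D17. In HMPOS both listed ADAMTS genes and the ADAMTS-like gene did. The share of genes higher by more than 2-fold was 18.3% for the whole D17 table and 20.5% for that of HMPOS. Low levels limit the HMPOS count, since ADAMTS12 was at 0.301 and 0.710 FPKM and ADAMTSL1 at 0.247 FPKM in parental cells. This difference between membrane and secreted members was not tested, since the genes are few and are not replicates.

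**Figure D3:**
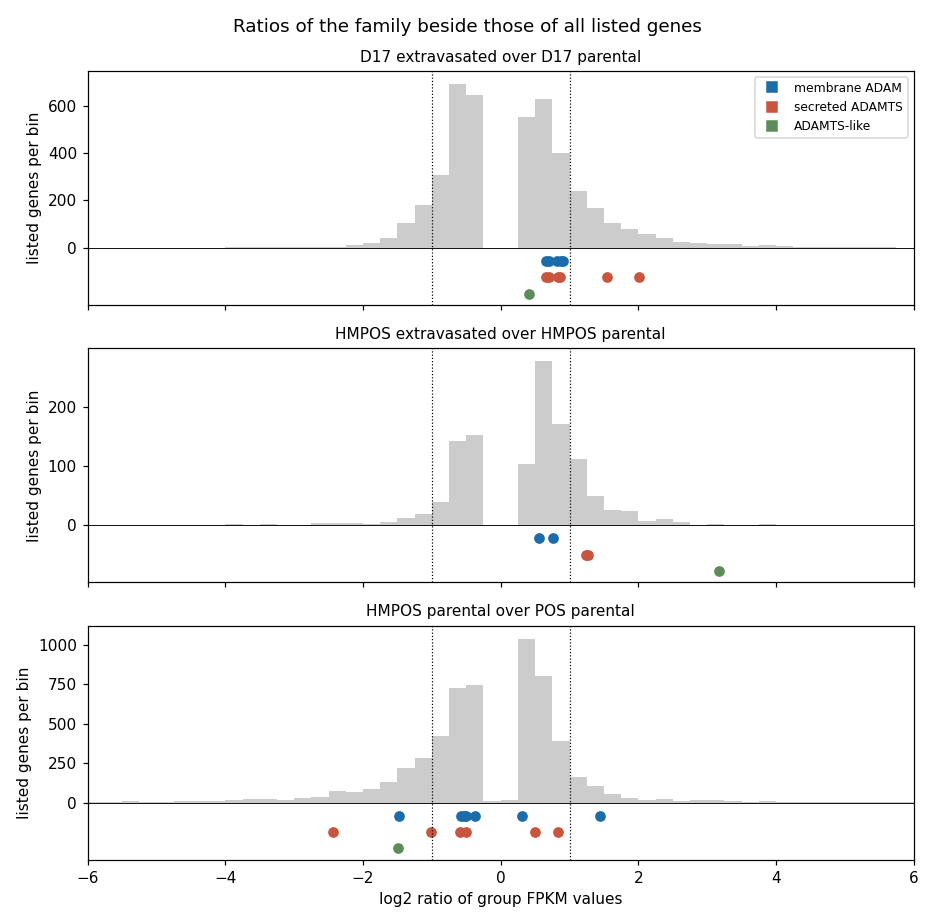
Number of listed genes (y axis, grey bars 0.25 wide) by log2 ratio of the group FPKM values (x axis) in each comparison, with the genes of the families as colored points under the bars and dotted lines at a 2-fold ratio. Only genes marked as significant are listed and few lie close to 0, the points lie right of 0 in D17 and HMPOS, and 1 listed gene in D17 and 31 in HMPOS against POS fall outside the plotted range.

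By median level, the listed membrane ADAM genes stood above the listed ADAMTS genes in the tables with more than 2 genes of each class. Genes that are not listed have no level, so the medians do not describe the whole classes. For extravasated against parental HMPOS, with 2 listed genes of each class, the extravasated medians were 20.8 FPKM for ADAM and 19.9 FPKM for ADAMTS genes. The parental medians there were 13.8 and 8.30 FPKM. In extravasated D17 cells the median FPKM was 12.01 for 5 ADAM genes and 4.37 for 6 ADAMTS genes, and in parental D17 cells it was 6.84 and 1.97. For HMPOS against POS it was 23.3 for 7 ADAM genes and 5.95 for 6 ADAMTS genes in parental HMPOS cells, and 34.8 and 3.78 in POS. The ranges overlapped, since ADAMTS2 was above ADAM11, ADAM15 and ADAM19 in extravasated D17 cells. Among all listed genes of the D17 table, ADAM17 was at the 87.3rd percentile of the higher group value and ADAMTS14 at the 4.08th percentile.

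The D17 and HMPOS comparisons share no library. They have in common 3 genes of the families, ADAM15, ADAMTS2 and ADAMTSL1, which is 25% of the 12 D17 genes and 60% of the 5 HMPOS genes. For all listed genes the shares were 13.9% and 51.6%. ADAM15 and ADAMTSL1 had a larger ratio in 1 line each, D17 and HMPOS in this order, and ADAMTS2 had the larger ratio in D17, with no test of these differences.

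The HMPOS and the HMPOS against POS comparisons share the parental HMPOS libraries, so a low or high value in these moves both ratios, in opposite directions. Over 907 genes with a value in both tables, the parental HMPOS values differed by a median absolute log2 ratio of 0.00135. The 4 genes listed in both are therefore given side by side. They are 80% of the 5 HMPOS genes and 28.6% of the 14 genes for HMPOS against POS. For all listed genes the shares were 76.4% and 15.8%. ADAMTS2 was at 24.5 FPKM in POS, 16.3 FPKM in parental HMPOS and 39.1 FPKM in extravasated HMPOS cells. ADAM15 was at 34.8, 23.3 and 34.3 FPKM in the same order, and ADAMTS12 at 1.62, 0.301 and 0.710 FPKM. Parental HMPOS cells were the lowest of the groups for these 3 genes, while for ADAM12, at 1.58, 4.29 and 7.27 FPKM, POS was the lowest.

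**Figure D4:**
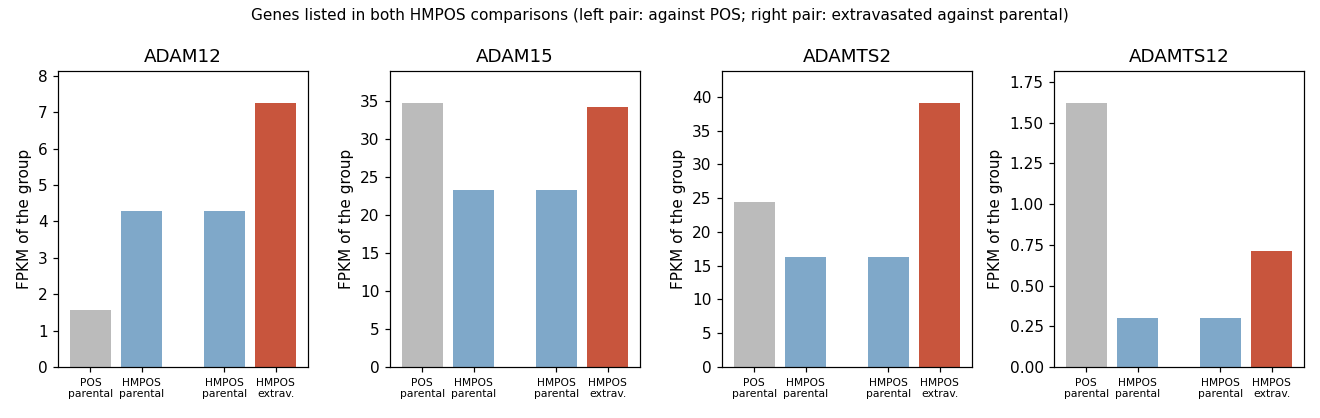
FPKM (y axis, from 0) of the 4 genes listed in both HMPOS comparisons, with the left pair of bars from the table of HMPOS against POS and the right pair from the table of extravasated against parental HMPOS cells, 1 pooled value per bar and no error bar. Parental HMPOS is lowest for ADAM15, ADAMTS2 and ADAMTS12, and ADAM12 runs from 1.58 FPKM in POS to 7.27 FPKM in extravasated HMPOS cells.

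The partners, inhibitors and substrates of these proteins were taken from background knowledge as lists. Of 7 inhibitors, the D17 table lists 5, all higher in extravasated cells and 3 of them by more than 2-fold, which 18.3% of all listed genes passed, with a median log2 ratio of 1.11. TIMP2, a tissue inhibitor of metalloproteinases, was at 10.9 FPKM in the parental and at 29.0 FPKM in the extravasated D17 cells, and A2M, a broad protease trap, at 0.416 and 2.08 FPKM. TIMP2 was the 1 inhibitor listed in HMPOS, at 54.6 and 84.1 FPKM. In parental HMPOS cells the 4 listed inhibitors were lower than in POS, 3 of them by more than 2-fold, beside 52.3% and 19.1% of all listed genes. TIMP3, a tissue inhibitor known to act on ADAM17 and several ADAMTS enzymes, was at 88.2 FPKM in POS and at 6.52 FPKM in parental HMPOS, a log2 ratio of -3.76.

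Of the 4 furin-type convertases, which remove the inhibitory prodomain of these enzymes, 2 were listed in D17, with FURIN at 5.53 FPKM in the parental and at 10.3 FPKM in the extravasated cells and PCSK7 at 16.7 and 12.4 FPKM. PCSK5 was the 1 convertase listed in HMPOS, at 1.59 and 2.78 FPKM. For HMPOS against POS all 4 were listed, 2 higher and 2 lower in HMPOS, beside 47.7% and 52.3% of all listed genes. POFUT2, which adds a sugar to thrombospondin type 1 repeats, was at 26.2 and 43.2 FPKM in D17 and at 50.3 and 73.5 FPKM in HMPOS. Of 9 tetraspanins and iRhoms that carry ADAM10 or ADAM17 to the surface, 1 was listed in D17, TSPAN33, at 2.16 and 1.28 FPKM, and none in HMPOS. For HMPOS against POS 3 were listed, 2 higher and 1 lower in HMPOS, beside the same shares of all listed genes. TSPAN33 was at 0.731 FPKM in POS and at 6.15 FPKM in parental HMPOS, and RHBDF1 at 5.98 and 3.58 FPKM.

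Among the partners of the procollagen amino-propeptidases, the extravasated cells were higher for 4 of 5 listed genes in D17 and for 5 of 5 in HMPOS, beside 54.2% and 67% of all listed genes. The procollagen gene COL3A1 was at 13.0 FPKM in the parental and at 4.50 FPKM in the extravasated D17 cells and at 56.7 and 821.7 FPKM in HMPOS, so that ADAMTS2 differed in 1 direction in both lines while this substrate differed in opposite directions. The type I procollagen genes differed in the direction of ADAMTS2 where listed for extravasated against parental cells. COL1A1 was at 224.4 and 397.4 FPKM in D17 and at 76.0 and 101.9 FPKM in HMPOS. COL1A2 was at 493.4 and 1360 FPKM in D17 and was not listed in HMPOS. PCOLCE, which enhances cleavage at the other end of procollagen, was at 24.3 and 143.7 FPKM in D17. Of 16 matrix substrates of the proteoglycanases, 8 of 9 listed genes were higher in extravasated D17 cells and 6 of 8 in HMPOS, beside the same shares. VCAN was the 1 lower gene in D17. In HMPOS the lower genes were VCAN and HAPLN1, each by more than 2-fold, as were 4.79% of all listed genes. In parental HMPOS cells 3 of 8 listed procollagen partners and 3 of 11 listed matrix substrates were higher than in POS, beside 47.7% of all listed genes. DCN, a small proteoglycan, was at 156.9 and 544.4 FPKM in D17, and ACAN, which encodes aggrecan, at 3.00 and 9.34 FPKM in HMPOS. HAPLN1, a link protein of aggregating proteoglycans, was at 11.6 FPKM in the parental and at 1.66 FPKM in the extravasated HMPOS cells.

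Of 46 membrane proteins known to be shed by ADAM enzymes, 24 were listed in D17, with 17 higher and 7 lower in extravasated cells, and 10 in HMPOS, with 8 higher and 2 lower. The median log2 ratios were 0.66 and 0.63, beside 0.39 and 0.58 for all listed genes. For HMPOS against POS 7 of 28 were higher and 21 lower, 10 of the latter by more than 2-fold, beside 47.7%, 52.3% and 19.1% of all listed genes. NRG1, a neuregulin, differed in opposite directions, at 1.31 FPKM in the parental and at 4.30 FPKM in the extravasated HMPOS cells, whereas the D17 values were 2.72 and 0.883 FPKM. The shed adhesion protein VCAM1 was at 0.104 and 1.40 FPKM in D17.

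Of 11 integrin subunits bound by disintegrin domains, 5 of 5 listed genes were higher in extravasated D17 cells and 4 of 5 in HMPOS. ITGA5 was at 10.5 and 24.2 FPKM in D17 and ITGB5 at 116.6 and 195.5 FPKM in HMPOS. Of 19 partners of the cytoplasmic tails, 4 of 6 listed genes were higher in extravasated D17 cells, and the kinase SRC was the 1 gene listed in HMPOS, at 12.8 and 18.9 FPKM. For fibrillin and other microfibril genes, 4 of 5 listed genes were higher in each line. FBN2, a fibrillin, was at 1.25 and 2.72 FPKM in HMPOS, and MFAP5 was at 2.20 FPKM in the parental and at 0.712 FPKM in the extravasated D17 cells. These counts describe the lists and stand beside the 54.2% of D17 and 67% of HMPOS genes that were higher among all listed genes.

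**Figure D5:**
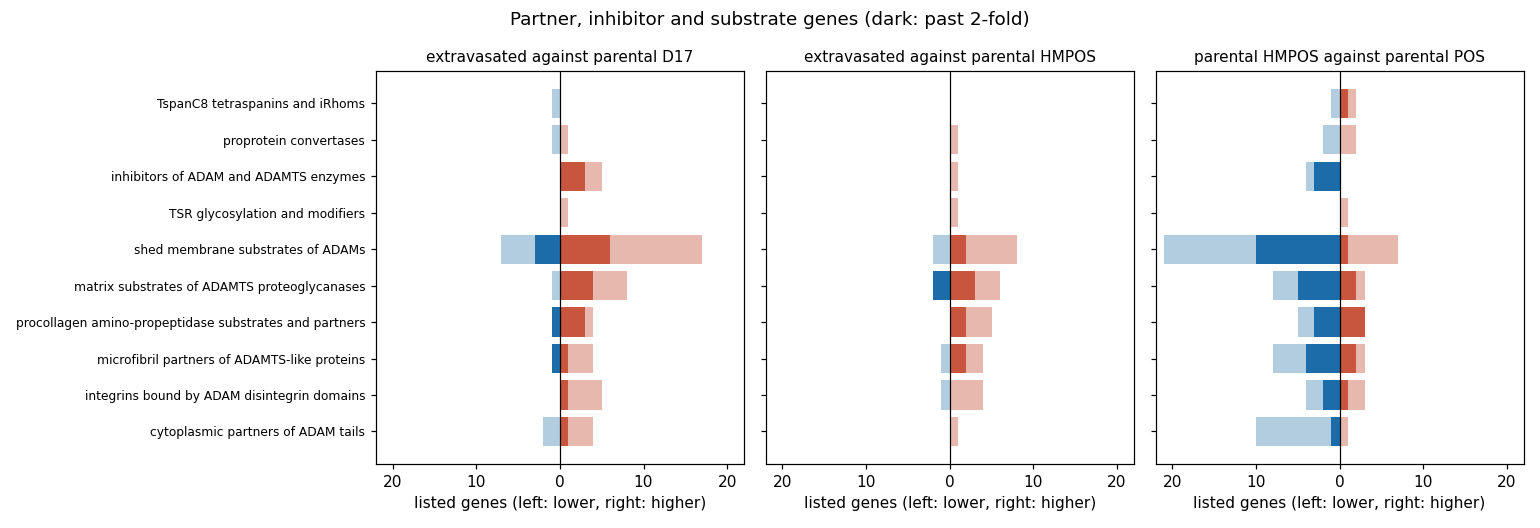
Number of listed genes (x axis) of each list of partners, inhibitors and substrates that were higher (right) or lower (left) in extravasated than in parental D17 or HMPOS cells, or in parental HMPOS than in parental POS cells, with dark bars for those past 2-fold. The longest bars are those of the shed membrane substrates, with 17 higher and 7 lower in D17 and 7 higher and 21 lower in HMPOS against POS.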

How the data were processed

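The authors deposited, per comparison, 1 FPKM value for each group, which pools its 3 libraries. The submitters' processing notes name Trimmomatic 0.38, TopHat2, Cufflinks, Cuffdiff and the build CanFam3.1, whereas the article's methods name STAR, voom and limma. The columns of the tables are those of Cuffdiff. The tables also hold the authors' log2 ratios, test statistics, p-values and q-values, which were not used, and every row is marked as significant.

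Ratios were computed from the FPKM values without a pseudocount, and counts were made past a fold of 2, the fold in the article's methods. Genes at 0 in a group (8, 3 and 28 in D17, HMPOS and HMPOS against POS, none of these families) were counted by direction without a ratio. Symbols were matched by pattern, so that a gene under another name or a date-like symbol (5 in D17 and 1 in HMPOS) would be missed. Every listed gene of the families was named, and examples of the other lists come from the 2 genes with the largest absolute log2 ratio at 1 FPKM or more. VCAN and the type I procollagen genes, which are also osteoblast markers, were named besides. The genes, lists and alternatives were chosen with earlier results of these data known. SDC4 stands in 2 of the substrate lists. Counting was tested on simulated data. No reference sequence of the genes was used here. Python 3.11.15, numpy 2.4.6, pandas 2.3.3 and matplotlib 3.10.9 were used.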

Additional observations from a re-analysis of the deposited data

How the results depend on the processing

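No paired analysis was possible because each group has 1 pooled value, whatever replicate numbers the sample titles carry, and for the same reason no replicate could be left out and no limit from depth can be given. The fold threshold moved the counts most. At a fold above 1.5, 11 genes were higher in D17 and 2 in HMPOS against POS, and at any fold D17 had 12 higher genes, HMPOS had 5, and HMPOS against POS had 4 higher and 10 lower genes. Centred on the median of all listed genes, 1 gene was higher past 2-fold in HMPOS and 2 in HMPOS against POS, and the log2 ratio of ADAM15 in HMPOS reversed to -0.0253. With a pseudocount of 1 FPKM, 2 genes were lower past 2-fold in HMPOS against POS and the median log2 ratio in HMPOS fell to 0.64. Over the genes past 2-fold alone, the median was 1.78 in D17 and -1.48 in HMPOS against POS. The other 39 counts and medians stayed within 1.5 times of their value, as did 91 of 97 alternative ratios of single genes. The 5 others moved with a pseudocount of 1 FPKM, for ADAMTS12 and ADAMTSL1 in HMPOS and ADAMTS9, ADAMTS12 and ADAMTSL3 in HMPOS against POS, each with at least 1 value below 1 FPKM. Many of the values that stayed could not have moved. Centring subtracts 1 value per table from each log2 ratio, 0.39 (D17), 0.58 (HMPOS) or -0.31 (parental lines). Each is smaller than a 1.5-fold change, so centring could reverse the ratio of a gene but not move it. No gene of the families was lower in D17 or HMPOS, so their counts of lower genes stayed at 0. Such values do not test how firm the results are.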
